A study of Mus musculus with 74 samples.

Results

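The livers of male B6C3F1 mice given troglitazone by mouth at 1200 mg/kg daily for 15 days were compared with the livers of vehicle mice of the same study and day. These 10 arrays, 5 troglitazone and 5 vehicle, were chosen by tissue, agent, day and study prefix in the sample titles, out of 74 arrays in the series. Set beside them were livers of 5 troglitazone and 5 vehicle mice on day 29, livers of 5 Elmiron (pentosan polysulfate, 1000 mg/kg, oral) and 5 vehicle mice of a separate study on day 15, and brown adipose tissue of 5 troglitazone and 5 vehicle mice on day 15. Each array held 1 mouse. The doses lay above the high doses of carcinogenicity studies, and the time course asked when proliferation or hypoxia appears in tissues that form hemangiosarcoma, a tumour of endothelial cells.

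Troglitazone is a thiazolidinedione, a class of insulin-sensitising drugs that bind PPARγ, the nuclear receptor that drives lipid storage in fat cells. Hepatocytes carry mainly PPARα, a related receptor whose targets oxidise fatty acids in peroxisomes and mitochondria and hydroxylate them through the Cyp4a enzymes. They also carry CAR and PXR, receptors that sense foreign compounds and raise cytochrome P450 genes, among which Cyp2b10 is the usual readout of CAR in mouse liver.

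In troglitazone livers 4 genes were called higher on day 15 and 0 lower, and some other settings, given below, also called lower genes. Cyp2b10, a drug-metabolising P450, was 6.36-fold higher, Pltp, which encodes the phospholipid transfer protein of plasma lipoproteins, 2.31-fold, Rdh16, a retinol and steroid dehydrogenase, 1.67-fold, and Acaa1b, a peroxisomal thiolase of fatty acid oxidation, 1.44-fold. A gene was called at a Benjamini-Hochberg adjusted p below 0.05 in limma over 18193 genes, so the calls are 0.022% of the genes tested. At an unadjusted p below 0.05 there were 782 genes (4.3%), 425 higher and 357 lower. The groups did not overlap in 381 genes (2.09%), with troglitazone above in 133 (0.731%) and below in 248 (1.36%). The median difference over all genes was -0.01 on the log2 scale, and 12 genes differed by 2-fold or more, 9 higher and 3 lower.

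The livers of day 29 shared the estimate of spread. Day 29 vehicle mouse 88 stood apart, with a root mean square deviation of 0.354 from its group mean, against 0.157 to 0.191 in troglitazone and 0.13 to 0.169 in vehicle livers of day 15. Without it 7 genes were called, 6 higher and 1 lower. Correlations between day 15 livers of a group ran from 0.991 to 0.995 for troglitazone and from 0.994 to 0.997 for vehicle. Albumin (Alb) lay at 15.11 to 15.20 in troglitazone and 15.12 to 15.16 in vehicle livers on the log2 scale, and Ucp1, the uncoupling protein of brown fat, at 5.86 to 6.21 in troglitazone and 5.88 to 6.25 in vehicle livers.

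**Figure D1:**
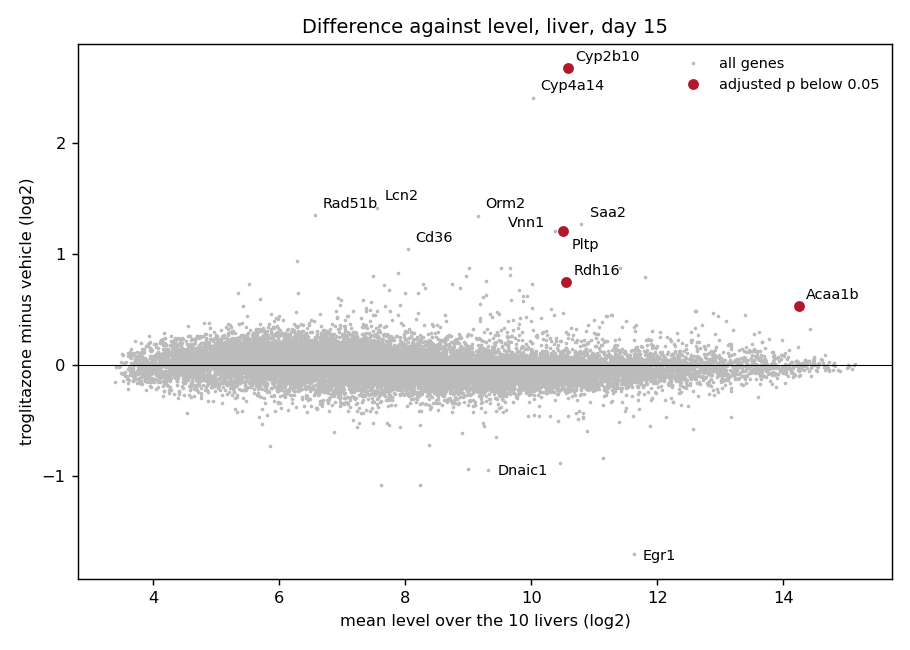
Difference between troglitazone and vehicle livers on day 15 (log2) against the mean level over the 10 livers (log2), 1 point per gene. The 4 called genes, in red, all lie above 0, and Acaa1b has the highest level and the smallest difference of the 4.

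The bases just before the transcription start of the 4 genes are shown because these genes rose together and because the receptors named above act on DNA as partners of RXR at AGGTCA-like hexamers. They are RefSeq sequences of build GRCm38.p6, 250 bases each, 5′ to 3′ along the gene. The positions are chr7:25897408-25897657 on the plus strand for Cyp2b10, chr2:164857709-164857958 on the minus strand for Pltp, chr10:127800903-127801152 on the plus strand for Rdh16 and chr9:119157094-119157343 on the minus strand for Acaa1b. Capitals mark AGGTCA or AGTTCA, or their reverse complements TGACCT and TGAACT.
Cyp2b10: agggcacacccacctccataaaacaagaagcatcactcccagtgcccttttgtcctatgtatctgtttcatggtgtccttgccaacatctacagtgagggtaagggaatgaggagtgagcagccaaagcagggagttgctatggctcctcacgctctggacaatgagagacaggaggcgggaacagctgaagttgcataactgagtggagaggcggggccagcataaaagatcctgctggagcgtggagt
Pltp: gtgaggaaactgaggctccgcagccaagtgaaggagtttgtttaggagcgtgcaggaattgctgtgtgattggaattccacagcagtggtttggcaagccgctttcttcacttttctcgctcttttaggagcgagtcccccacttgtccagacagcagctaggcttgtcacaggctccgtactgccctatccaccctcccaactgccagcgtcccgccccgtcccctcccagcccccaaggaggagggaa
Rdh16: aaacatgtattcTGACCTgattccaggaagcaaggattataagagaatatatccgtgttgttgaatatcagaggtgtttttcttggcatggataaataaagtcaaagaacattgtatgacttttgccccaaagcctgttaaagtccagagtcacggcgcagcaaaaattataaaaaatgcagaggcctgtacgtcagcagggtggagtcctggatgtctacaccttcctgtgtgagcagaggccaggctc
Acaa1b: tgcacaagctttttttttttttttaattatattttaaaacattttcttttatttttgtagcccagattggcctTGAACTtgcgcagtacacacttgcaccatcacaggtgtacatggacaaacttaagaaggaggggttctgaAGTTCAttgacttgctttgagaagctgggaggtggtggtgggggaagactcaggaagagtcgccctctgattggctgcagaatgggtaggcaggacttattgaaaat
AGGTCA was present in the Rdh16 window on the other strand, and AGTTCA was present in the Acaa1b window on both strands. Over all 32851 RefSeq windows of this length, 14% held AGGTCA and 11.8% held AGTTCA on either strand. Direct repeats of AGGTCA spaced by 1 base, as known for PPAR, and by 4 bases, as known for CAR, were in 0 of the 4 windows, and in 0.0335% and 0.0152% of all windows. At such shares 0 of 4 was to be expected and does not show that a gene lacks a receptor site. Sites farther upstream or with other letters were not searched.

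Cyp2b10 had log2 levels of 11.72, 12.46, 12.04, 11.87 and 11.53 in troglitazone livers, against 9.48, 9.19, 9.49, 8.65 and 9.47 in vehicle livers, for mice 52 to 56 and mice 42 to 46 in that order here and below. Every troglitazone liver lay above every vehicle liver. The difference was 2.67 ± 0.25 (SE, log2; 95% interval 2.15 to 3.19), the largest of all genes (limma adjusted p = 6.06e-06). Its other probe sets, of a design that can match related genes, differed by 2.84 and 2.92.

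Pltp was at 10.85, 10.91, 11.20, 11.22 and 11.33 in troglitazone livers, against 9.76, 9.97, 9.85, 10.02 and 9.86 in vehicle livers. The groups did not overlap, and the vehicle livers were close to each other. The difference was 1.21 ± 0.14 (SE, log2; limma adjusted p = 9.15e-05), and a second probe set differed by 1.32 ± 0.18.

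Rdh16 was at 10.84, 10.86, 10.81, 11.26 and 10.87 in troglitazone livers, against 10.32, 10.20, 10.004, 10.26 and 10.12 in vehicle livers. Troglitazone mouse 55 was the highest, and the other troglitazone livers also lay above all vehicle livers. The difference was 0.74 ± 0.10 (SE, log2; limma adjusted p = 0.00208).

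Acaa1b was at 14.58, 14.40, 14.51, 14.62 and 14.47 in troglitazone livers, against 14.12, 13.87, 13.88, 14.01 and 14.04 in vehicle livers. Troglitazone and vehicle livers were apart, at levels near the top of the scale. The difference was 0.53 ± 0.08 (SE, log2; limma adjusted p = 0.00208), and without troglitazone mice 54 and 55 it was not called (0.50, limma adjusted p = 0.0987).

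**Figure D2:**
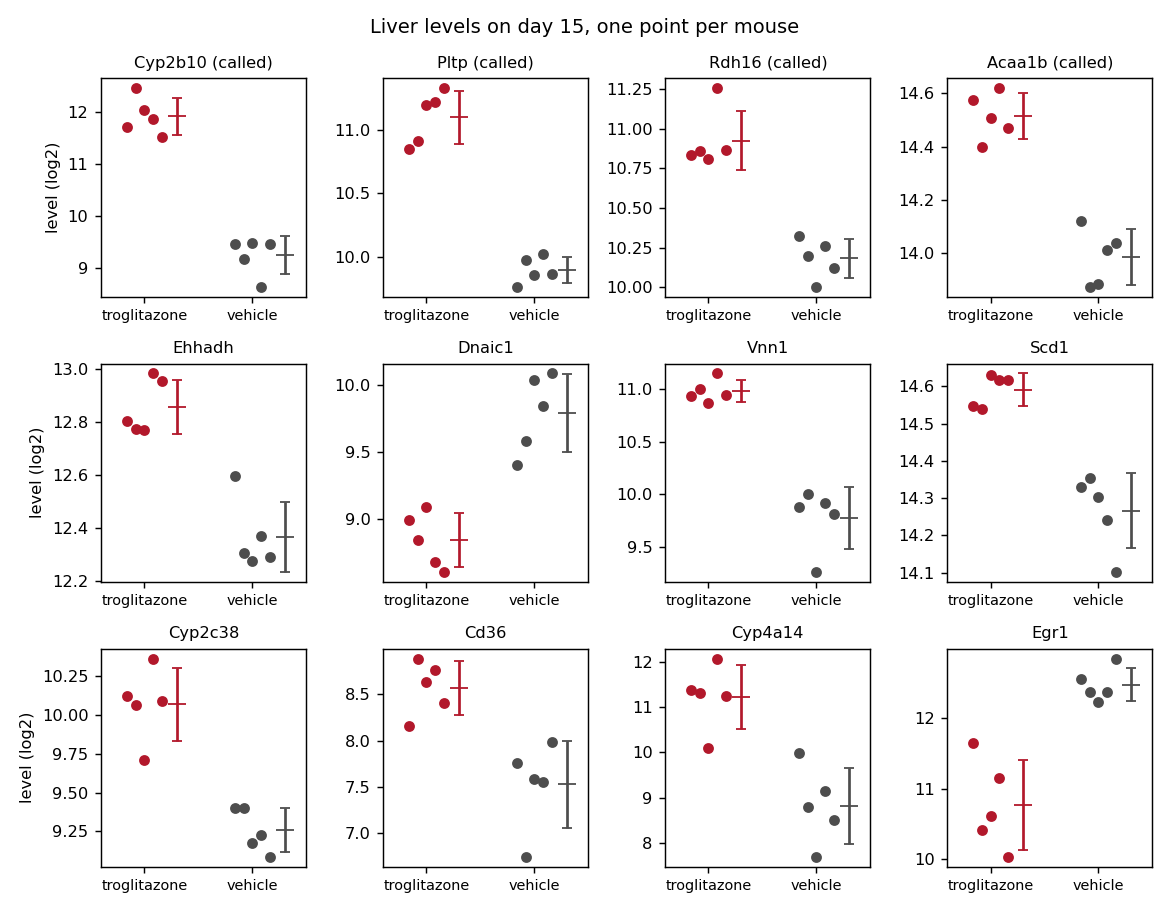
Log2 level of 12 genes in each liver on day 15, troglitazone left and vehicle right; points are mice, bars the mean and SD (n = 5 each). The groups are apart in all 12 panels, while Cyp2b10, Pltp, Rdh16 and Acaa1b are the 4 called genes.

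The genes ranked next by p were not called in this fit. Ehhadh, the bifunctional enzyme of the peroxisomal pathway that Acaa1b also serves, was at 12.80, 12.77, 12.77, 12.98 and 12.95 in troglitazone livers, against 12.60, 12.31, 12.28, 12.37 and 12.29 in vehicle livers. There was no overlap between the groups, and the difference was 0.49 ± 0.09 (SE, log2; limma adjusted p = 0.0524). Dnaic1, an intermediate chain of the dynein of cilia, had the smallest p among the genes described that were lower. It was at 8.998, 8.85, 9.09, 8.68 and 8.61 in troglitazone livers, against 9.40, 9.58, 10.03, 9.84 and 10.08 in vehicle livers. The groups did not overlap, the difference was -0.94 ± 0.17 (SE, log2; limma adjusted p = 0.0592), and a second probe set gave -0.95. Over all single-symbol probe sets, limma adjusted p was 0.0487 for Ehhadh and 0.0487 and 0.0392 for the Dnaic1 probe sets. In 20 other settings that gave a value per gene, Ehhadh was called in 8 and Dnaic1 in 9.

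Vnn1, a pantetheinase that follows PPARα in liver, was at 10.93, 11.002, 10.87, 11.15 and 10.95 in troglitazone livers, against 9.87, 10.001, 9.26, 9.92 and 9.81 in vehicle livers. Vehicle mouse 44 was the lowest, and the groups did not overlap. The difference of 1.21 ± 0.23 (SE, log2) equalled that of Pltp with a larger error (limma adjusted p = 0.0732). Scd1, the desaturase that makes monounsaturated fatty acids, was at 14.55, 14.54, 14.63, 14.62 and 14.62 in troglitazone livers, against 14.33, 14.35, 14.30, 14.24 and 14.10 in vehicle livers. No troglitazone liver overlapped the vehicle range, and the difference was 0.32 ± 0.07 (SE, log2; limma adjusted p = 0.144). A second, dimmer Scd1 probe set averaged 13.23 in troglitazone and 12.25 in vehicle livers and differed by 0.98 ± 0.15, with a limma adjusted p of 0.00936 over all single-symbol probe sets. The membrane protein gene Tmem98 differed by 0.62 ± 0.13, the recombination gene Rad51b by 1.35 ± 0.29, with 1 of its 2 probe sets in the other direction, and the phospholipase gene Plcb4 by -0.54 ± 0.12, with 2 of its 5 probe sets in the other direction. The mean over the Plcb4 probe sets differed by -0.11.

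Of 50 measured genes of fatty acid oxidation under PPARα, 1 was called (Acaa1b), and 10 were higher and 1 lower at an unadjusted p below 0.05. That is 20% and 2%, against 2.34% higher and 1.96% lower over all genes. The list's median difference was 0.04, against -0.01 over all genes. Cyp4a14, a fatty acid omega-hydroxylase, was at 11.38, 11.33, 10.10, 12.08 and 11.25 in troglitazone livers, against 9.98, 8.79, 7.69, 9.15 and 8.50 in vehicle livers. The groups did not overlap, but mice of either group were far apart, and the difference of 2.40 ± 0.55 (SE, log2; 95% interval 1.26 to 3.55) was not called (limma adjusted p = 0.309).

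Cd36, a fatty acid transporter, was at 8.16, 8.88, 8.63, 8.76 and 8.41 in troglitazone livers, against 7.76, 6.74, 7.58, 7.56 and 7.98 in vehicle livers. Troglitazone and vehicle livers were apart, all 3 probe sets were higher, and the difference was 1.04 ± 0.22 (SE, log2; limma adjusted p = 0.144). Other members with their log2 differences were the omega-hydroxylase Cyp4a31 (0.69 ± 0.22), the fatty aldehyde dehydrogenase Aldh3a2 (0.44 ± 0.11), the acyl-CoA thioesterase Acot3 (0.45 ± 0.13) and the thiolase Acaa1a (0.30 ± 0.08), none of them called. The receptor gene Ppara differed by -0.04 (95% interval -0.37 to 0.29). Pdk4, a kinase that spares glucose, differed by 0.52 (-0.14 to 1.17), Angptl4, an inhibitor of lipoprotein lipase, by -0.07 (-0.45 to 0.30), and the fasting hormone gene Fgf21 by -0.31 (-0.77 to 0.15). Cyp4a10 is not analysed here.

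Of 34 measured PPARγ targets and lipid storage genes of fat cells 0 were called, and 4 were higher and 0 lower at an unadjusted p below 0.05 (11.8% higher, median 0.05). These were Cd36, the lipoprotein lipase gene Lpl (0.79 ± 0.20), the acyltransferase gene Mogat1 and Fitm1, of lipid droplet formation (0.57 ± 0.18). Mogat1 was at 7.34, 7.52, 7.20, 6.94 and 7.41 in troglitazone livers, against 6.62, 6.69, 6.70, 6.66 and 6.83 in vehicle livers. The groups did not overlap, and the difference was 0.58 ± 0.16 (SE, log2; limma adjusted p = 0.64). Pparg itself differed by 0.16 (95% interval -0.12 to 0.44), and the lipid droplet genes Cidec by -0.08 (-0.53 to 0.37), Cidea by 0.11 (-0.20 to 0.42) and Plin4 by 0.16 (-0.31 to 0.64). Fabp4, the lipid carrier of fat cells, differed by -0.22 (-0.53 to 0.10), with 2 of its 4 probe sets in the other direction. Of 10 measured white adipocyte markers 0 passed an unadjusted p below 0.05.

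Among 38 measured cytochrome P450 genes of families 1 to 3, 1 was called (Cyp2b10), and 7 were higher and 0 lower at an unadjusted p below 0.05 (18.4% higher, median 0.04). Cyp2c38 was at 10.12, 10.06, 9.71, 10.36 and 10.09 in troglitazone livers, against 9.40, 9.40, 9.18, 9.23 and 9.09 in vehicle livers. There was no overlap between the groups, and the difference of 0.81 ± 0.17 (SE, log2) was not called (limma adjusted p = 0.144). The P450 genes Cyp2c39 (0.87 ± 0.22), Cyp2g1 (0.54 ± 0.20), Cyp2b9 (0.41 ± 0.11) and Cyp2c55 (0.40 ± 0.13) were not called either. Cyp3a11, the usual PXR readout, lay between 14.61 and 14.68 in troglitazone and 14.57 and 14.62 in vehicle livers, near the top of the scale. Its difference was 0.04 (95% interval -0.09 to 0.18), and that of Cyp1a2, a readout of the aryl hydrocarbon receptor, 0.01 (-0.17 to 0.19).

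Of 32 measured CAR and PXR partners and drug transport genes 0 were called, and 7 were higher and 0 lower at an unadjusted p below 0.05 (21.9% higher, median 0.02). The exporter gene Abcc3 differed by 0.39 ± 0.13. Among 43 conjugation genes 0 were called, and at that threshold 1 was higher (2.33%) and 5 lower (11.6%). The shares over all genes were 2.34% and 1.96%. Without troglitazone mice 54 and 55, 4 conjugation genes were higher and 0 lower. Over all genes the counts without those mice were 585 higher and 268 lower, against 425 and 357 with them. The higher conjugation gene with all mice was the glutathione transferase Gstt3 (0.51 ± 0.11), and the lower ones included Gstm3 (-0.27 ± 0.11) and the sulfotransferase Sult1b1 (-0.33 ± 0.15). Of 25 oxidative stress genes under Nrf2 0 were called, and 2 were higher (8%) and 0 lower. Hmox1, heme oxygenase, differed by 0.73 ± 0.22, and the quinone reductase Nqo1 by 0.08 (95% interval -0.21 to 0.37). With Elmiron on day 15 Hmox1 differed by 0.64 ± 0.31 and Nqo1 by 0.19 ± 0.15, neither called.

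Of 35 measured genes of fatty acid and triglyceride synthesis 0 were called, and 7 were higher and 0 lower at an unadjusted p below 0.05 (20% higher, median 0.03). Me1, which supplies NADPH, was at 12.81, 12.81, 12.82, 12.98 and 13.04 in troglitazone livers, against 12.65, 12.38, 12.62, 12.50 and 12.49 in vehicle livers. No troglitazone liver overlapped the vehicle range, and the difference was 0.36 ± 0.11 (SE, log2; limma adjusted p = 0.784). Acacb, an acetyl-CoA carboxylase, differed by 0.43 ± 0.13, with 1 of its 2 probe sets in the other direction. Srebf1, a regulator of these genes, differed by 0.05 (95% interval -0.31 to 0.41).

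The lipoprotein list had 1 called gene of 26, Pltp, and at an unadjusted p below 0.05 2 were higher and 2 lower (7.69% each). Apoa4, an apolipoprotein, was at 11.59, 11.76, 11.44, 11.53 and 11.69 in troglitazone livers, against 11.97, 12.53, 12.26, 11.80 and 12.21 in vehicle livers. Every troglitazone liver was below every vehicle liver, and the difference was -0.55 ± 0.13 (SE, log2; limma adjusted p = 0.34). The endothelial lipase gene Lipg differed by 0.40 ± 0.20. Of 23 cholesterol synthesis genes 0 were higher and 2 lower at that threshold (8.7% lower, median -0.05). Of 35 genes of glucose metabolism 0 were higher and 0 lower. Of 28 bile acid genes 3 were higher (10.7%) and 1 lower (3.57%). Cyp7a1, the rate-limiting enzyme of bile acid synthesis, differed by -0.17 (95% interval -0.96 to 0.61), and the oxysterol hydroxylase Cyp39a1 by -0.45 ± 0.13.

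**Figure D3:**
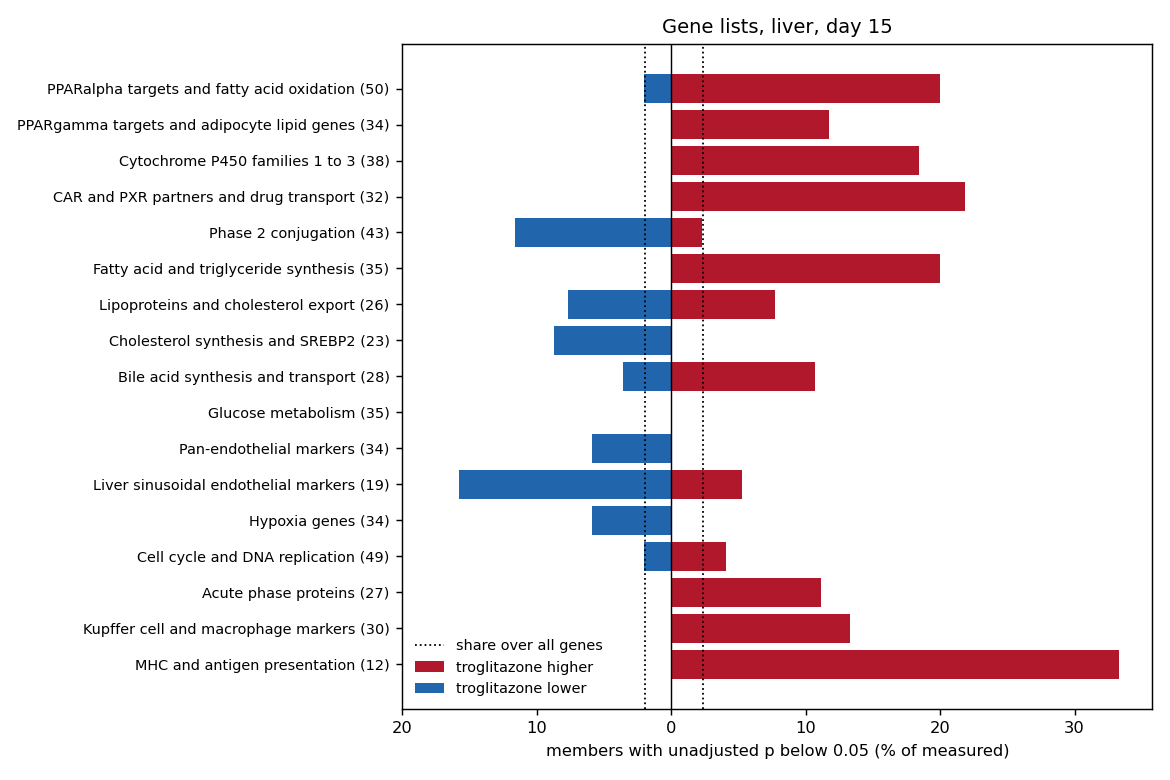
Share of each list's measured members (number in brackets) with an unadjusted p below 0.05 in limma, in percent, with troglitazone higher to the right and lower to the left; dotted lines give the shares over all genes, 2.34% higher and 1.96% lower. The list of antigen presentation reaches 33.3% higher (4 of 12 members). The lists of fatty acid oxidation, P450 genes, drug transport and lipid synthesis reach 18.4% to 21.9% higher.

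The vascular, hypoxic and proliferative genes that the time course was designed around held 0 called members, as did most lists. Of all genes 0.022% were called, and of the 50 lists 3 had a called member. Of 34 pan-endothelial markers 0 were higher and 2 lower (5.88%) at an unadjusted p below 0.05 (median -0.12, against -0.01 over all genes). Among these 34 markers 6 had a difference above 0, where 45.47% of all genes did. The medians on day 29 were -0.01 for this list and 0.02 for the sinusoidal markers below. Erg, an endothelial transcription factor, was at 7.31, 7.76, 7.62, 7.50 and 7.08 in troglitazone livers, against 8.09, 8.11, 7.70, 8.07 and 7.92 in vehicle livers. The groups overlapped through troglitazone mouse 53 and vehicle mouse 44. The difference was -0.52 ± 0.14 (SE, log2; limma adjusted p = 0.634), against 0.02 ± 0.14 on day 29, and day 15 minus day 29 was not called (limma adjusted p = 0.651). Pecam1, of endothelial junctions, differed by -0.13 (95% interval -0.42 to 0.16), the VEGF receptor gene Kdr by -0.14 (-0.43 to 0.14) and the sinusoidal scavenger receptor gene Stab2 by -0.03 (-0.37 to 0.31). Of 19 sinusoidal endothelial markers 1 was higher and 3 lower (15.8% lower, against 1.96% over all genes; median -0.05), against 1 higher and 0 lower without mice 54 and 55. The lower ones were the growth factor gene Bmp2 (-0.30 ± 0.12), the membrane trafficking gene Ehd3 (-0.22 ± 0.10) and Tfpi, an inhibitor of coagulation (-0.31 ± 0.14), and the higher one was Cd36. Fewer cells of a type and less RNA per cell cannot be told apart in whole liver.

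Of 34 hypoxia genes 0 were higher and 2 lower at an unadjusted p below 0.05 (5.88% lower, median 0.01). The vessel growth factor gene Vegfa differed by -0.07 (95% interval -0.32 to 0.18), adrenomedullin (Adm) by 0.07 (-0.22 to 0.35) and the oxygen-regulated transcription factor gene Hif1a by 0.02 (-0.21 to 0.25), with 2 of its 4 probe sets in the other direction. Of 49 cell cycle and replication genes 2 were higher (4.08%) and 1 lower (2.04%). Mki67, a proliferation marker, differed by -0.08 (-0.35 to 0.18), cyclin D1 (Ccnd1) by 0.23 (-0.10 to 0.57) and the inhibitor Cdkn1a by 0.16 (-0.90 to 1.23). The topoisomerase Top2a differed by -0.24 (-0.46 to -0.02), with 1 of its 3 probe sets in the other direction, and by -0.01 over the mean of its probe sets.

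The most negative difference of all genes, against the study's own vehicle livers, was that of Egr1, an immediate early transcription factor, which was at 11.65, 10.41, 10.61, 11.15 and 10.04 in troglitazone livers, against 12.56, 12.38, 12.23, 12.37 and 12.85 in vehicle livers. Every troglitazone liver was below every vehicle liver. The difference of -1.71 ± 0.59 (SE, log2) was not called with the day 29 livers in the fit (limma adjusted p = 0.957) and was called with the day 15 livers alone (limma adjusted p = 0.0227). Against the vehicle livers of the Elmiron study it was -0.01, and Egr1 ran from 9.25 to 12.93 in those livers.

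Inflammatory genes set single livers apart. Saa2, serum amyloid A, an acute phase protein that hepatocytes make in inflammation, was at 9.46, 10.27, 13.73, 13.80 and 9.85 in troglitazone livers, against 9.40, 10.06, 9.86, 9.62 and 11.82 in vehicle livers. Lcn2, lipocalin, was at 6.48, 6.58, 11.50, 10.45 and 6.32 in troglitazone livers, against 6.27, 6.78, 6.97, 6.56 and 7.67 in vehicle livers. Troglitazone mice 54 and 55 were far above the other day 15 livers of the study for both genes, and vehicle mouse 46 was the highest vehicle liver. Among the livers set beside them, troglitazone mouse 92 of day 29 had 14.08 for Saa2 and 13.19 for Lcn2, and Elmiron mouse 55 had 13.77 and 10.71. The mean over 27 acute phase genes, relative to the vehicle mean, was 0.95 in each of mice 54 and 55, against -0.15 to 0.31 in vehicle livers. Of these genes 0 were called, and 3 were higher (11.1%) and 0 lower at an unadjusted p below 0.05 (median 0.23). Without mice 54 and 55, 0 were higher and the median was -0.02. As these mice had the highest means for these genes, leaving them out was bound to lower the list.

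Among the day 15 livers of the study, troglitazone mouse 54 also had the highest mean level of macrophage markers. The secreted Kupffer cell protein gene Cd5l was at 10.98, 11.35, 12.35, 11.07 and 11.39 in troglitazone livers, against 10.94, 10.53, 10.80, 11.32 and 11.37 in vehicle livers. The mean level of 30 Kupffer cell and macrophage markers ran from 8.62 to 9.36 in troglitazone livers, against 8.44 to 8.88 in vehicle livers. At an unadjusted p below 0.05, 4 of them were higher (13.3%, against 2.34% over all genes) and 0 lower (median 0.19). Without mice 54 and 55, 0 were higher (median 0.10), where 585 of all genes were higher. Of 13 neutrophil markers 1 was higher (7.69%) and 0 lower with all mice (median 0.19), and 4 were higher without mice 54 and 55 (median 0.03). On day 29 Cd5l was at 12.54 in troglitazone mouse 92. The Kupffer cell receptor gene Clec4f differed by 0.22 ± 0.23. H2-Aa, which presents antigen, was at 9.36, 10.31, 11.22, 9.47 and 10.09 in troglitazone livers, against 8.97, 8.96, 9.23, 9.35 and 9.59 in vehicle livers. The groups overlapped, with mouse 54 highest, and the difference of 0.87 ± 0.31 was not called (limma adjusted p = 0.957). Of 12 antigen presentation genes 4 were higher (33.3%) and 0 lower (median 0.16), against 1 higher without mice 54 and 55. The invariant chain gene Cd74 differed by 0.67 ± 0.26 and the chemokine gene Cxcl10 by 0.80 ± 0.23. With Elmiron on day 15, Cd5l differed by 0.56 ± 0.19, Clec4f by 0.30 ± 0.19 and H2-Aa by 0.64 ± 0.27. Cd74 differed there by 0.49 ± 0.22 and Cxcl10 by 0.73 ± 0.51, none of them called. The part of immune cells in the differences was not tested.

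**Figure D4:**
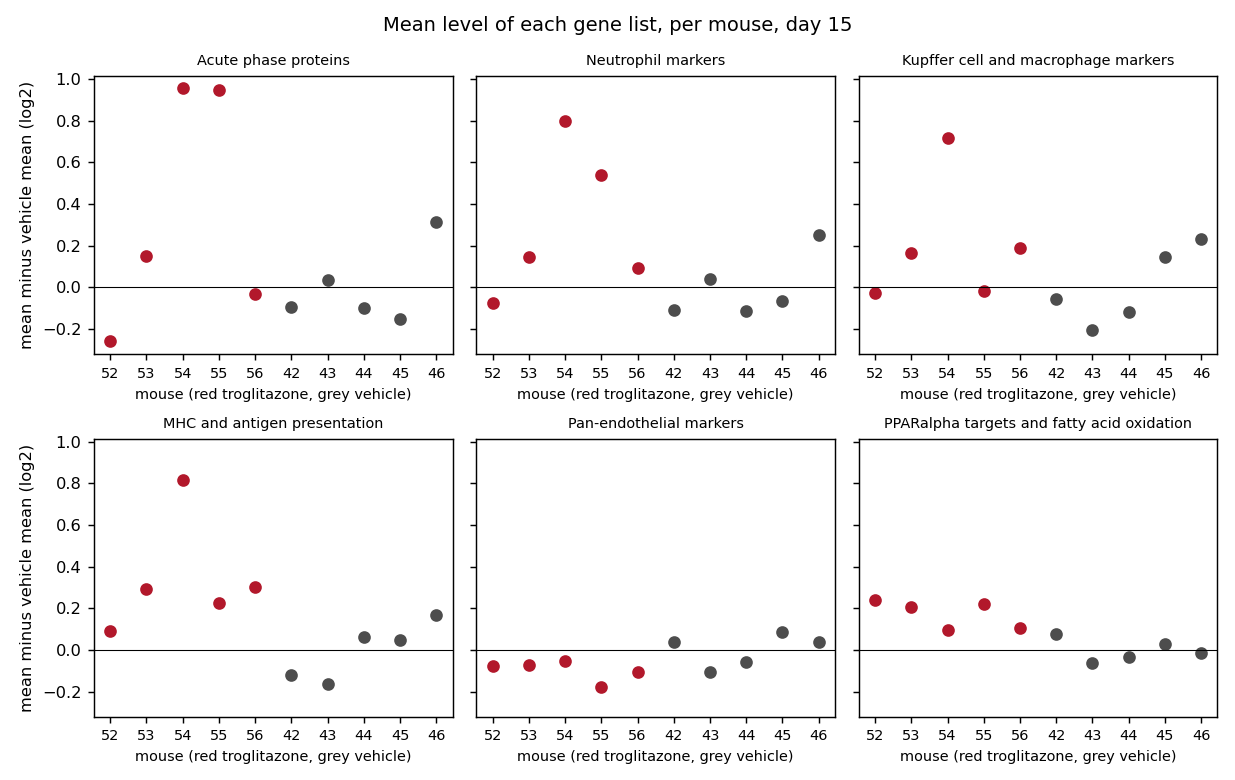
Mean level of 6 gene lists in each liver relative to the vehicle mean (log2), troglitazone mice left in red and vehicle mice right in grey. Mice 54 and 55 each reach 0.95 for acute phase genes, and mouse 54 stands highest for neutrophil, macrophage and antigen presentation genes.

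Livers of other mice on day 29 had 21 called genes (0.115%), and 1859 genes (10.2%) at an unadjusted p below 0.05. Cyp2b10 differed there by 1.98 ± 0.25 (limma adjusted p = 6.05e-04), Pltp by 0.999 ± 0.14, Rdh16 by 0.80 ± 0.10 and Acaa1b, not called, by 0.37 ± 0.08 (limma adjusted p = 0.0587). Cd36 (1.75), Vnn1 (1.29), Dnaic1 (-1.09), Tmem98 (0.69), Rad51b (1.55) and Fitm1 (0.97) were called on day 29 and not on day 15. The test of day 15 minus day 29 called 0 genes in limma, with 1363 (7.49%) at an unadjusted p below 0.05, so a call on one day and not on the other does not show a change with time. That difference was 0.69 for Cyp2b10 (limma adjusted p = 0.662) and -0.71 for Cd36 (limma adjusted p = 0.651).

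Elmiron, a sulfated polysaccharide, gave 0 calls in liver on day 15 in limma, with 997 genes (5.48%) at an unadjusted p below 0.05. Cyp2b10 differed there by 0.27 ± 0.40, Pltp by 0.08 ± 0.13, Rdh16 by 0.04 ± 0.11 and Acaa1b by -0.09 ± 0.21. The test of troglitazone minus Elmiron called 1 gene (0.0055%; 5.97% at an unadjusted p below 0.05), Pltp, with 1.13 ± 0.19 (limma adjusted p = 0.0156). There were 0 calls without vehicle mouse 42 or without any 1 of troglitazone mice 54, 55 and 56. For Cyp2b10 the difference was 2.40 ± 0.50 (limma adjusted p = 0.193), with levels from 8.58 to 10.30 in Elmiron livers and 8.60 to 10.59 in that study's vehicle livers. Compound, dose and study cannot be told apart. The day 15 vehicle livers of the troglitazone minus the Elmiron study gave 0 calls in limma, with 3.11% of genes at an unadjusted p below 0.05.

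Brown adipose tissue on day 15 had 11 called genes (0.0605%; 3.75% at an unadjusted p below 0.05). Acaa1b was among them at 1.20 ± 0.19 (limma adjusted p = 0.0175), and its liver minus brown adipose difference was not called (-0.67, limma adjusted p = 0.862). Cyp2b10 differed in brown adipose tissue by -0.06 ± 0.18 and Pltp by 0.04 ± 0.18. The test of liver minus brown adipose tissue called 4 genes (0.022%; 3.19% at an unadjusted p below 0.05). These were Cyp2b10 (2.73, limma adjusted p = 1.40e-05), Pltp (1.17, limma adjusted p = 0.0489), the kinase gene Sgk2 (-2.14) and the GTPase gene Rhob (0.93). In liver Sgk2 differed by 0.16 ± 0.12 and Rhob by 0.18 ± 0.10, neither called. With the mouse as a block Pltp was not called (limma adjusted p = 0.0604). Cyp2b10 was the 1 call left without the livers of troglitazone mice 54 and 55. The same held without any 1 liver of vehicle mice 42 to 45 or troglitazone mice 54 to 56. All brown adipose arrays stayed in.

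**Figure D5:**
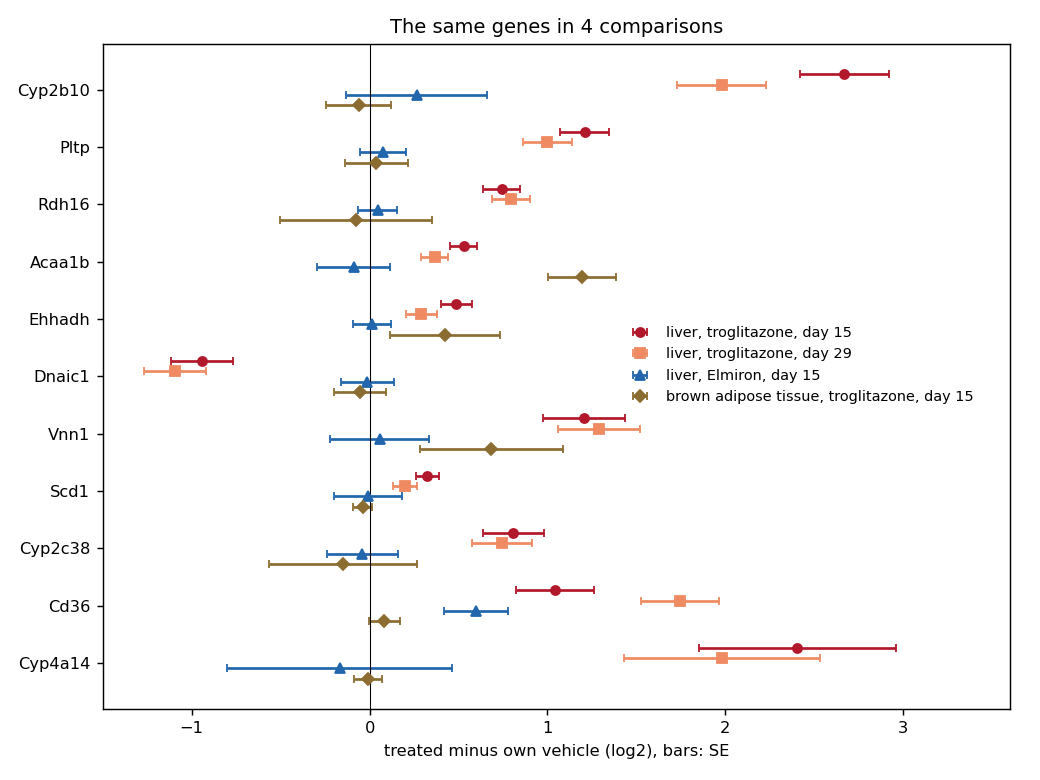
Treated minus own vehicle difference (log2, bars SE) of 11 genes in liver with troglitazone on days 15 and 29, in liver with Elmiron on day 15 and in brown adipose tissue with troglitazone on day 15. Every gene but Dnaic1 lies right of 0 on both days in liver with troglitazone, and Dnaic1 lies left. In brown adipose tissue Acaa1b is farthest right.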

How the data were processed

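Trizol RNA was hybridised as biotin-labelled cRNA to Affymetrix arrays, per the labels' protocols. The deposited values are linear intensities of 45101 probe sets after RMA, per the submitters' processing notes (no version given). Their log2 was computed here, and each of 18193 genes was taken from its single-symbol probe set with the highest mean over 74 arrays. The 50 gene lists, the comparison and the naming rule were chosen with earlier results of these data known.

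limma 3.58.1 (R 4.3.3; lmFit, eBayes) was run on the 20 livers of the troglitazone study with 1 mean per group. Contrasts with Elmiron or brown adipose tissue used 40 arrays. The number of arrays limits the precision, and the labels give no batch. On simulated data 18% of genes were recovered at the smallest fold simulated, under 1.5. The shares were 82% of genes changed 1.5-fold and 94% of those changed 2-fold, and 8.12% of all calls were false. The simulation changed 50 genes at each fold together, with independent normal noise per gene. So many changed genes loosen the adjusted p, so these shares do not exclude a change in genes not called here. In the data Cyp4a14, at 5.29-fold, was not called. Plots were drawn in matplotlib 3.10.9.

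Named by rule were the 12 largest non-overlapping called rises and falls, for each list with a call its 4 members of largest difference, 36 fixed genes and up to 5 called differences between comparisons for each direction. Ehhadh, Acaa1a, Aldh3a2, Acot3, Fitm1, Cyp2b9, Cyp2c55, Gstt3, Gstm3, Sult1b1, Abcc3, Cyp39a1, Me1, Acacb, Dnaic1, Tmem98, Rad51b, Plcb4, Bmp2, Ehd3, Tfpi, Erg, Egr1, H2-Aa, Cd74, Cxcl10, Mpeg1, Saa1, Saa2, Lcn2, Sgk2, Rhob, Hspa1a and Hspa1b were chosen after their values were seen. Liver and brown adipose arrays of 8 mice are paired by animal in the labels, and their deviations from group means correlated between -0.0547 and 0.151.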

Additional observations from a re-analysis of the deposited data

Results flagged for a closer look

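Several genes had 1 liver far from the other 4 of its group, by the gap to the nearest liver as a share of the group's range (critical value 0.71). In troglitazone livers these were Rdh16, highest in mouse 55 (0.862), Fitm1, highest in mouse 53 (0.795), Cyp1a2, highest in mouse 52 (0.792), Adm, lowest in mouse 52 (0.828) and Mpeg1, highest in mouse 54 (0.76). In vehicle livers these were Vnn1, lowest in mouse 44 (0.741), Cxcl10, highest in mouse 42 (0.762), Saa2, highest in mouse 46 (0.729) and Sgk2, highest in mouse 44 (0.809). In all, 9 of 152 groups stood out (5.92%), and chance gives about 1 in 20.

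The effect of troglitazone differed between comparisons by a limma test of the difference itself. Liver minus brown adipose tissue was 2.73 for Cyp2b10, 1.17 for Pltp, -2.14 for Sgk2 and 0.93 for Rhob, and troglitazone minus Elmiron in liver was 1.13 for Pltp.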

How the results depend on the processing

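Cyp2b10, Pltp and Rdh16 were called in all 20 other settings that gave a value per gene, and Acaa1b in 19 of them. Over all single-symbol probe sets, 13 probe sets were called (9 higher, 4 lower), some of them of the same gene, such as Cyp2b10. By gene, the 4 calls became 7 (6 higher, 1 lower) with quantile normalization, with trended and robust eBayes and without day 29 vehicle mouse 88. The same counts held with the dimmer 50% of genes dropped (fewer genes tested). They became 8 (6 higher, 2 lower) with probe sets averaged and 10 (8 and 2) with the day 15 arrays alone. With the Elmiron study's vehicle livers there were 15 (12 and 3), and with array weights 19 (13 and 6). With a fold of at least 1.5 required, or without troglitazone mice 54 and 55, 3 were left, without Acaa1b. Leaving out 1 array gave 4 to 6 calls. The settings without mouse 88 and without troglitazone mice 54 and 55 were chosen after seeing the data. The cause of the other changes was not tested.

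Day 15 minus day 29 had 0 calls in every setting run. Troglitazone minus Elmiron had 2 with quantile normalization, 0 without mice 54 and 55 and 0 to 1 with 1 array left out. Liver minus brown adipose tissue had 8 with dim genes dropped, 8 with quantile normalization, 1 without the livers of mice 54 and 55, 1 to 4 with 1 liver array left out and 3 with the mouse as replicate block, which changed no call other than that of Pltp.

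Some genes that were not called took the other sign. With the Elmiron study's vehicle livers these were Fgf21 (0.00221), Plin4 (-0.14), Cyp1a2 (-0.0598), Cyp7a1 (0.32), Vegfa (0.0965), Adm (-0.0667) and Clec4f (-0.0946), and without mice 54 and 55 they were Angptl4 (0.10), Cyp7a1 (0.20), Srebf1 (-0.0151), Adm (-0.00972), Hif1a (-0.11), Nqo1 (-0.00583), Saa1 (-0.57), Saa2 (-0.29), Lcn2 (-0.39) and Alb (-0.00663). Quantile normalization turned Ppara (0.0103) and Stab2 (0.0285), array weights Cidec (0.0341) and Cyp1a2 (-0.0129) and averaged probe sets Hif1a (-0.0439). With 1 array left out, the ranges that crossed 0 were those of Ppara (-0.16 to 0.11), Angptl4 (-0.22 to 0.12), Cidec (-0.27 to 0.0400), Cyp1a2 (-0.0533 to 0.0475), Cyp7a1 (-0.36 to 0.0197), Srebf1 (-0.00913 to 0.12), Stab2 (-0.0981 to 0.0324), Hif1a (-0.0602 to 0.0777), Cdkn1a (-0.20 to 0.51), Nqo1 (-0.00443 to 0.18) and Alb (-0.00262 to 0.0188). The cause was not tested.

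Of 998 recomputed list medians 72 moved by more than the SD of the vehicle arrays. The number of arrays limits the calls at small folds.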

Other observations

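Of 14 measured heat shock and chaperone genes 0 were called in limma, and 2 were higher (14.3%) and 0 lower at an unadjusted p below 0.05 (median 0.11, against -0.01 over all genes). Hspa1b, an inducible chaperone, differed by 0.87 ± 0.29 (SE, log2), and its neighbour Hspa1a by 0.58 ± 0.22, with no overlap of the groups for Hspa1a. Of 23 measured liver genes with female bias 3 were higher (13%) and 1 lower (4.35%; median 0.15). The higher ones were Cyp2b9 and Cyp2g1, also counted in the P450 list, and Acot3, also counted under fatty acid oxidation. The lower one was Cyp39a1. Of 23 with male bias 0 were higher and 3 lower (13% lower, median -0.06). Over all genes 2.34% were higher and 1.96% lower.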
